A study of Arabidopsis thaliana with 6 samples.

Results

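This section describes 10 Arabidopsis thaliana genes for atypical helix-loop-helix (HLH) proteins among the 32678 genes listed in each library. They were chosen by locus identifier, as known members of a regulatory circuit of cell elongation, but with earlier results of these data known. Of these, 6 promote growth, namely PRE1 to PRE6 (PACLOBUTRAZOL RESISTANCE), and 4 inhibit it, namely PAR1 and PAR2 (PHY RAPIDLY REGULATED), HFR1 (LONG HYPOCOTYL IN FAR-RED) and IBH1 (ILI1 BINDING BHLH). The transcripts were measured by RNA sequencing in 3 libraries of the wild-type accession Col-0 and 3 libraries of csu6-2, a mutant of COP1 SUPPRESSOR 6, all from whole seedlings after 5 days under white light. The labels name no allele beyond csu6-2, and nothing in them says whether the libraries of a genotype came from separate growths, so p-values measure the spread between these libraries, which may be technical.

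In the basic helix-loop-helix family the HLH part pairs the proteins with each other and the basic part holds DNA. Atypical members lack a basic part that binds DNA well, so they act by pairing. IBH1 pairs with DNA-binding growth factors such as HBI1 and keeps them off DNA, and PRE proteins pair with IBH1 and thereby release its partners. PAR1, PAR2 and HFR1 pair with phytochrome-interacting factors (PIFs), the bHLH factors of hypocotyl growth in shade and darkness, and hold them off DNA. COP1, an E3 ubiquitin ligase of dark development, targets HFR1 protein for breakdown. The title of the study asks about PIF4 and PIF5, and the comparison of the genotypes here follows both arms of this circuit.

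The first point for a family of look-alike genes is whether the reads can tell its members apart. The coding sequences of the PRE genes, of 279 to 285 bases, were 64.5 to 84.6% identical over 15 pairs in the RefSeq copy of the TAIR10.1 genome. PRE1 and PRE5 were the closest pair, with 84.6% identity. Their second coding segments, which encode the second helix and the end of the protein, are shown. PRE1 had the largest log2 change of the 10, and PRE5 is the PRE gene closest to it by coding identity. Both run 5′ to 3′, from chr5:15958151-15958303 (plus strand) and chr3:10855781-10855933 (minus strand), and capitals in PRE5 mark the bases that differ from PRE1, 22 of 153.
PRE1: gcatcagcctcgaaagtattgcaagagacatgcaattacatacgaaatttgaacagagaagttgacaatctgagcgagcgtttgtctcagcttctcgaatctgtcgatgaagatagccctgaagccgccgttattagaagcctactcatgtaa
PRE5: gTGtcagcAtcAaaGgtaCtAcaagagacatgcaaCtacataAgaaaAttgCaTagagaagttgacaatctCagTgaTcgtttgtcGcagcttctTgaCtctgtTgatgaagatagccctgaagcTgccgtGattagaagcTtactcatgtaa
The longest run of identical bases that any of the 10 transcripts shared with another annotated transcript, on either strand, was 31 bases (IBH1). It was 24 bases for PRE1, with AT5G59400, and 21 for PRE5, with AS1. The coding sequences of PRE1 and PRE5 shared a run of at most 20 bases. How many reads the genes could share was not tested. No annotated gene overlapped any of the 10, so the unstated strand setting of the counting does not touch them through an annotated neighbour.

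PRE1 and PAR2 rose in csu6-2. PRE4 passed the test too, but only in a direction that the filter on low values fixed, as set out below. None of the 10 fell, which PRE4 and PRE5 could not do under that filter, and 7 did not pass the test. PRE1, a gibberellin- and brassinosteroid-induced promoter of elongation, was 2.12 times as high in the mutant as in Col-0 by the means. PAR2, which restrains shade growth, was 1.46 times as high, and PRE4, a gene of low level, 1.97 times. Counted against the background, 3 of 10 members were called higher where 3.55% of all tested genes were (12.9% in either direction, and 9.38% lower), at a Benjamini-Hochberg adjusted p below 0.05 in limma. The count needs a limit, because PRE4 and PRE5 passed the filter on low values (at least 1 RPKM, a read number divided by gene length and library size, in 3 libraries) through the csu6-2 libraries alone. A gene that passes in that way has to be higher in csu6-2, without overlap. PRE4 and PRE5 are therefore left out of the counts and medians given next and by group. Later counts of calls or directions that hold either gene say so. Of the 8 other members, 2 were called higher, and all 8 log2 changes were above 0, with a median of 0.34, while the median over the 18885 tested genes was -0.07 and 34.8% of them lay above 0. With 1 library left out, 1 to 3 members were called, PRE1 in every case. In whole seedlings, a different share of cells of a type and a different level per cell cannot be told apart.

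**Figure D1:**
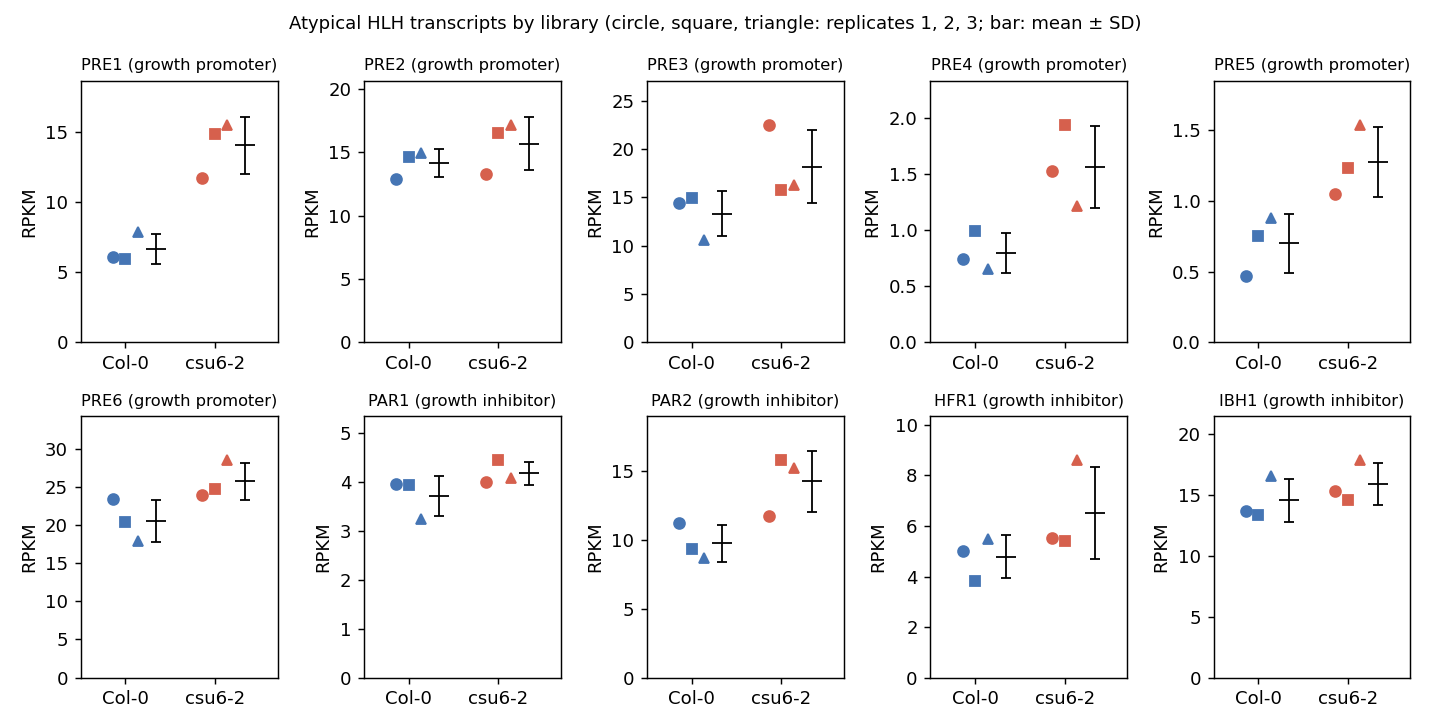
RPKM of each of the 10 genes in the 3 Col-0 (blue) and 3 csu6-2 (red) libraries, on axes that start at 0; circles, squares and triangles are replicates 1, 2 and 3, and the black bar is the mean ± SD. The PRE1 libraries of csu6-2, from 11.7 RPKM up, stand clear of the Col-0 libraries, which reach 7.86 RPKM, while the points of PRE2, HFR1 and IBH1 mix.

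Among the growth promoters, PRE1 (AT5G39860, chromosome 5, 15957368 to 15958559, plus strand, 2 exons) stood at 6.11, 5.92 and 7.86 RPKM in Col-0 replicates 1, 2 and 3 and at 11.73, 14.88 and 15.52 RPKM in csu6-2. Every mutant library lay above every wild-type library, and the lowest mutant value exceeded the highest wild-type value by more than the SD of either group. The means were 6.63 ± 1.07 RPKM and 14.04 ± 2.03 RPKM (SD, n = 3 each). The log2 change on the log2(RPKM + 1) scale was 0.98 (SE 0.12, limma adjusted p = 0.000367, 95% interval 0.71 to 1.25). It ranked 164th of 18885 genes by p, and the call held in all 14 alternative settings, with adjusted p between 3.66e-05 and 0.00563.

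PRE6 (AT1G26945, chromosome 1, also KIDARI), which pairs with HFR1 and weakens its hold on growth, was the most abundant of the 10 in both genotypes. It stood at 23.36, 20.38 and 17.88 RPKM in Col-0 and at 23.87, 24.74 and 28.51 RPKM in csu6-2. The groups did not overlap, but only 0.51 RPKM separated Col-0 replicate 1 from csu6-2 replicate 1. Its log2 change of 0.31 (SE 0.10) missed the threshold (limma adjusted p = 0.0592, 95% interval 0.09 to 0.53).

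PRE3 (AT1G74500, chromosome 1, also ATBS1 and TARGET OF MONOPTEROS 7) encodes a small protein that moves between cells of the embryo and was found as a suppressor of a brassinosteroid receptor mutant. It stood at 14.42, 14.91 and 10.62 RPKM in Col-0 and at 22.53, 15.73 and 16.31 RPKM in csu6-2. The mutant mean was drawn up by replicate 1, and the wild-type mean down by replicate 3. The log2 change was 0.42 (SE 0.16, limma adjusted p = 0.122), and it was 0.26 without csu6-2 replicate 1 and 0.28 without Col-0 replicate 3.

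PRE2 (AT5G15160, chromosome 5, also BANQUO 2), which shares its other name with a set of genes held down in petals by floral homeotic factors, had Col-0 values of 12.87, 14.61 and 14.97 RPKM and csu6-2 values of 13.28, 16.51 and 17.19 RPKM. The groups overlapped, as csu6-2 replicate 1 lay below 2 of the Col-0 libraries. The log2 change was 0.13 (limma adjusted p = 0.444), and its 95% interval, -0.09 to 0.35, lay wholly below that of PRE1.

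PRE4 (AT3G47710, chromosome 3, also BANQUO 3) and PRE5 (AT3G28857, chromosome 3) were near the bottom of the measured range. PRE4 had 0.74, 0.99 and 0.65 RPKM in Col-0 and 1.53, 1.94 and 1.21 RPKM in csu6-2, without overlap. Its log2 change was 0.51 (SE 0.15, limma adjusted p = 0.0411), but with no filter on low values the adjusted p was 0.0591, and without Col-0 replicate 1, 2 or 3 it was 0.0838, 0.0577 and 0.110. Without any csu6-2 library it was no longer tested, so the PRE4 call held in none of the 6 settings that leave out a library. PRE5 had 0.47, 0.75 and 0.88 RPKM in Col-0 and 1.05, 1.23 and 1.54 RPKM in csu6-2, again without overlap. Its log2 change was 0.42 (limma adjusted p = 0.0852). By the depth estimate these levels stood on 6 to 23 reads per library for PRE5 and 6 to 19 for PRE4 if the most common low value is 1 read, and on 2 times as many if it is 2 reads. The pseudocount of 1 compresses such low genes, and with a pseudocount of 0.1 the log2 changes were 0.89 for PRE4 and 0.80 for PRE5.

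**Figure D2:**
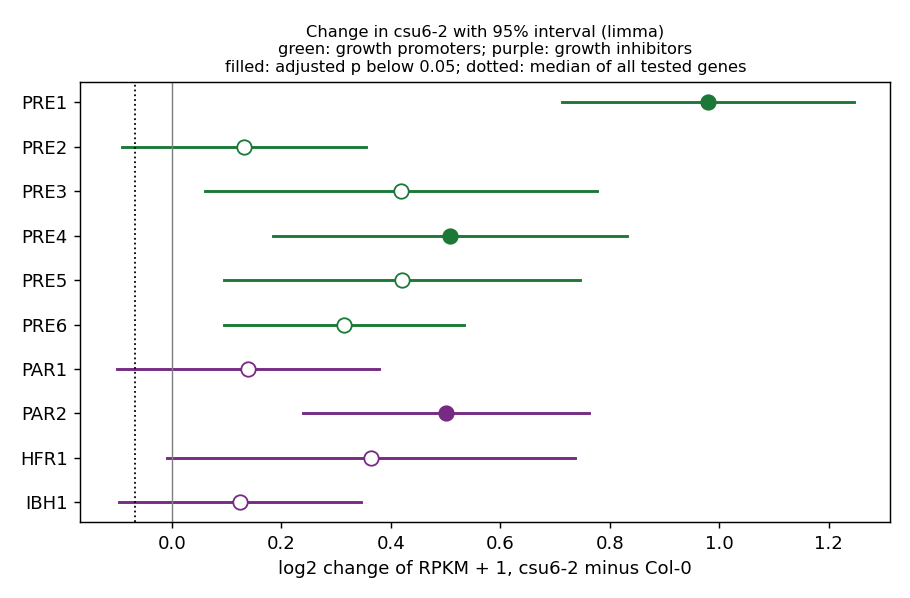
log2 change of RPKM + 1 (csu6-2 minus Col-0) of each gene with its 95% interval from limma, growth promoters in green and inhibitors in purple; filled points passed the adjusted p of 0.05 and the dotted line is the median of all tested genes, -0.07. All 10 points lie to the right of 0, as the filter on low values requires for PRE4 and PRE5, with PRE1 farthest at 0.98. The intervals of PRE2, PAR1, HFR1 and IBH1 reach across 0.

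Among the growth inhibitors, PAR2 (AT3G58850, chromosome 3, 21759350 to 21760390, minus strand, 1 exon) passed the test. It stood at 11.23, 9.37 and 8.68 RPKM in Col-0 and at 11.74, 15.82 and 15.24 RPKM in csu6-2. The groups did not overlap, although csu6-2 replicate 1 lay only 0.51 RPKM above Col-0 replicate 1. The means were 9.76 ± 1.32 and 14.3 ± 2.21 RPKM (SD, n = 3 each). The log2 change was 0.50 (SE 0.12, limma adjusted p = 0.0173). The PAR2 call was lost when any one of Col-0 replicates 2 and 3 (adjusted p = 0.0689 and 0.0548) and csu6-2 replicates 2 and 3 (0.0864 and 0.0617) was left out, and with no filter on low values (0.0542).

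PAR1 (AT2G42870, chromosome 2), the closest to PAR2 of the 8 members compared with it (HFR1 was not), with 77.1% identity over the coding sequence, had 3.95, 3.94 and 3.25 RPKM in Col-0 and 4, 4.45 and 4.09 RPKM in csu6-2. The groups did not overlap, by 0.05 RPKM. The log2 change of 0.14 did not pass (limma adjusted p = 0.454, 95% interval -0.10 to 0.38).

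HFR1 (AT1G02340, chromosome 1, 4 exons) had 5.02, 3.83 and 5.48 RPKM in Col-0 and 5.54, 5.39 and 8.61 RPKM in csu6-2. A single library, csu6-2 replicate 3, stood above the rest, and the other mutant libraries lay at the upper edge of the wild-type range. The log2 change was 0.36 (SE 0.17, limma adjusted p = 0.189) and 0.17 without csu6-2 replicate 3. IBH1 (AT2G43060, chromosome 2), whose own gene is repressed by the brassinosteroid factor BZR1, had 13.67, 13.38 and 16.58 RPKM in Col-0 and 15.34, 14.58 and 17.87 RPKM in csu6-2. The groups overlapped, and the log2 change was 0.12 (limma adjusted p = 0.471, 95% interval -0.10 to 0.35).

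For the groups without PRE4 and PRE5, 1 of 4 growth promoters and 1 of 4 growth inhibitors were called higher, beside 3.55% of all tested genes, and 0 of either lower. The median log2 change was 0.37 in these promoters and 0.25 in the inhibitors. Groups of libraries did not overlap, with csu6-2 higher, for 3 of these 4 promoters and 2 of 4 inhibitors, where 9.04% of all tested genes did so (32% in either direction). RPKM is a level per length, so levels can be summed over the group as a description. The 6 PRE genes summed to 57.97, 57.56 and 52.86 RPKM in Col-0 and to 73.99, 75.03 and 80.28 RPKM in csu6-2. Without PRE1 the sum still did not overlap, at 45.00 to 51.86 RPKM in Col-0 and 60.15 to 64.76 RPKM in csu6-2. The 4 inhibitors summed to 33.87, 30.52 and 33.99 RPKM in Col-0 and to 36.62, 40.24 and 45.81 RPKM in csu6-2. Both sums were thus higher in every mutant library, by factors of 1.36 and 1.25 in the means. The ratio of the PRE sum to the inhibitor sum was 1.71, 1.89 and 1.56 in Col-0 and 2.02, 1.86 and 1.75 in csu6-2, and these overlapped. Its means were 1.72 ± 0.165 and 1.88 ± 0.135 (SD, n = 3 each). Sums and ratios over the members carry no test.

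**Figure D3:**
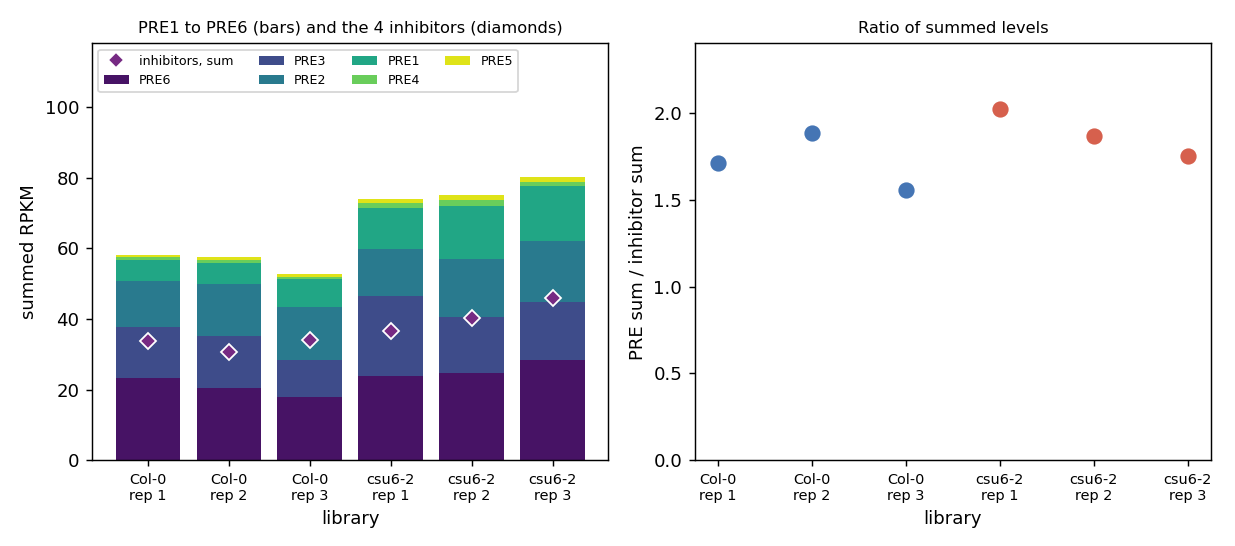
Left, RPKM of PRE1 to PRE6 stacked for each library, with the summed RPKM of PAR1, PAR2, HFR1 and IBH1 as diamonds; right, the ratio of the PRE sum to the inhibitor sum, Col-0 in blue and csu6-2 in red. The bars and the diamonds are higher in each csu6-2 library than in each Col-0 library, whereas the ratios, 1.56 to 1.89 and 1.75 to 2.02, overlap.

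PRE1 made a larger share of the PRE sum in each csu6-2 library than in any Col-0 library, a description with no test. Its share was 10.5, 10.3 and 14.9% in Col-0 and 15.9, 19.8 and 19.3% in csu6-2. PRE2 made 20.5 ± 2.19% in csu6-2 against 25.3 ± 3.06% in Col-0 (SD, n = 3 each), while the share of PRE6 was 36.5 ± 3.37% in Col-0 and 33.6 ± 1.71% in csu6-2. In the order of levels in Col-0, PRE6 led, then IBH1, PRE2, PRE3 and PAR2, whose ranges overlapped from one to the next, then PRE1, HFR1, PAR1, PRE4 and PRE5. PAR2 and PRE1 did not overlap in Col-0 but did in csu6-2, where PRE3, IBH1, PRE2, PAR2 and PRE1 formed a run of overlapping neighbours between PRE6 and HFR1. PRE1 relative to IBH1, whose proteins pair, went from 0.447, 0.442 and 0.474 in Col-0 to 0.765, 1.02 and 0.868 in csu6-2, as a ratio of RPKM. Protein was not measured, and the ratio of the whole PRE sum to the inhibitor sum overlapped between the genotypes. PRE1 relative to PRE2 went from 0.405 to 0.525 in Col-0 to 0.883 to 0.903 in csu6-2.

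Whether PRE1 changed more than its relatives was tested on the difference of log2(RPKM + 1) within each library, over 6 pairs of members. PRE1 had the largest log2 change of the 10, and PAR2 a larger one than PAR1. The sign of each excess below follows from that alone. With 3 libraries against 3, the two-sided exact permutation test cannot go below p = 0.1. The change of PRE1 exceeded that of PRE2 by 0.85, that of PRE6 by 0.67 and that of PRE5 by 0.56 on the log2 scale, each with no overlap of the genotypes (exact permutation p = 0.1, adjusted p = 0.15 over the 6 pairs). It exceeded that of PRE3 by 0.56 and that of PRE4 by 0.47, with overlap (exact permutation p = 0.2, adjusted p = 0.2). The change of PAR2 exceeded that of PAR1 by 0.36, without overlap (exact permutation p = 0.1, adjusted p = 0.15). None of these pairs can pass a threshold of 0.05 in this design. The comparisons with the low genes depend on the pseudocount, which compresses their changes. With a pseudocount of 0.1 the change of PRE1 exceeded that of PRE4 by 0.18 (exact permutation test, adjusted p = 0.7) and that of PRE5 by 0.27 (adjusted p = 0.36), and with 0.5 by 0.36 and 0.46. The ratios of mean RPKM, 2.12 for PRE1, 1.97 for PRE4 and 1.82 for PRE5, lay close together. Over the alternatives the excess of PRE1 was 0.76 to 0.93 for PRE2, 0.53 to 0.87 for PRE6 and 0.41 to 0.83 for PRE3.

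The level of the DNA-binding factors that these proteins hold or release was read in the same libraries. HBI1, the growth factor bound by IBH1, stood at 40.54, 41.88 and 39.24 RPKM in Col-0 and at 55.57, 61.77 and 64.27 RPKM in csu6-2, a log2 change of 0.56 (SE 0.08, limma adjusted p = 0.00049). BEE3, a brassinosteroid-induced bHLH factor of growth, stood at 4.93, 4.44 and 4.64 RPKM in Col-0 and at 8.68, 7.02 and 7.95 RPKM in csu6-2, a log2 change of 0.64 (limma adjusted p = 0.0015). Both calls held in all 14 alternative settings. CIB5, a relative of the cryptochrome-binding factor CIB1, fell, from 4.73 ± 0.842 to 3.10 ± 0.0862 RPKM (SD, n = 3 each; log2 change -0.48, limma adjusted p = 0.0217), but the call was lost when replicate 1 of Col-0 (adjusted p = 0.0866) or any one of the csu6-2 libraries (0.0512, 0.0586 and 0.0635) was left out. Of the 8 bHLH partners listed, 2 rose, 1 fell, 3 did not pass (BEE1, BEE2 and ACE1) and 2 were too low to test (CIB1 and CES). Over all tested genes, 3.55% rose and 9.38% fell.

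Of the 7 PIFs, all tested, PIF4, PIF5 and PIF7 rose and 0 fell, where 3.55% of all tested genes rose and 9.38% fell. The related gene PIL1 was too low to test. PIF4 stood at 19.48, 15.04 and 19.64 RPKM in Col-0 and at 29.80, 41.16 and 45.03 RPKM in csu6-2 (log2 change 1.05, limma adjusted p = 0.00576). Its lowest mutant library, replicate 1, was also the lowest mutant library of PRE1, PRE2, PRE5, PRE6, PAR1 and PAR2. The other members went otherwise. PRE3, HFR1 and IBH1 were lowest in csu6-2 replicate 2 and PRE4 in replicate 3, and PRE3 was highest in replicate 1 (22.53 RPKM). PIF5 (log2 change 0.87, limma adjusted p = 0.0112) lost its call when Col-0 replicate 2 (adjusted p = 0.0592) or csu6-2 replicate 3 (0.0557) was left out. PIF7 (log2 change 0.35, limma adjusted p = 0.0282) lost it when either of csu6-2 replicates 2 and 3 (0.107 and 0.104), or replicate 2 of Col-0 (0.118), was left out, and also with no filter on low values (0.0595) and with eBayes without trend and robust (0.052). Of the 5 relatives of IBH1 that also restrain growth (IBL1 and AIF1 to AIF4), 0 passed in either direction, and their log2 changes ran from -0.08 to 0.30. By limma at an unadjusted p below 0.05 there was 1, AIF3. Of the 5 brassinosteroid and auxin factors known to act on this circuit or its targets (BZR1, BES1, ARF5, ARF6 and ARF8), 0 passed and 0 had an unadjusted p below 0.05, with log2 changes of -0.15 to 0.15. Over all 18885 tested genes, 12.9% passed in either direction and 5266 had an unadjusted limma p below 0.05.

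PRE1, PRE4 and PAR2 are the called members, PRE4 in a direction that the filter on low values fixed. The 250 bases before the annotated start of each are therefore shown, 5′ to 3′ on the gene's strand, from the TAIR10.1 genome of RefSeq. PIF proteins bind the G-box (CACGTG) and the PBE-box (CACATG, or CATGTG on the other strand), and any match is in capitals. The windows are chr5:15957118-15957367 (PRE1), chr3:17590294-17590543 (PRE4) and chr3:21760391-21760640 (PAR2).
PRE1: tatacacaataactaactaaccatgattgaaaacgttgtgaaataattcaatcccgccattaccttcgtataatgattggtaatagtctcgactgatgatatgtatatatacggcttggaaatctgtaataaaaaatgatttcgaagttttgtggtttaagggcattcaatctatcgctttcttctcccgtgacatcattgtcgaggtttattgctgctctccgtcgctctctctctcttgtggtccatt
PRE4: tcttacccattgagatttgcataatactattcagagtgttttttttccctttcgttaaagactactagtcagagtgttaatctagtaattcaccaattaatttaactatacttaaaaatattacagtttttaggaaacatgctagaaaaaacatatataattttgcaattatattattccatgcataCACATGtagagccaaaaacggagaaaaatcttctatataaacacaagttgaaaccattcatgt
PAR2: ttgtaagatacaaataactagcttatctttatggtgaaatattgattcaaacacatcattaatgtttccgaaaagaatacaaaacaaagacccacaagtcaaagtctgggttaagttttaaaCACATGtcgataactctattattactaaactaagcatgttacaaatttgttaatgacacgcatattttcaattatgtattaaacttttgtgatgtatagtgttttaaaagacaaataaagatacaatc
The PRE4 window holds a PBE-box that begins 63 bases before the start, and the PAR2 window holds one 128 bases before it. The PRE1 window holds neither motif, which says only that these letters are not in it. Over the 10 members, 3 windows held the PBE-box (PRE4, PRE6 and PAR2), against 11.1% of 27443 protein-coding genes, and 1 held the G-box (PRE2), against 6.49%. Both motifs are forms of the E-box CANNTG, which 6 of 10 windows and 55.3% of all held. The motifs bound by BZR1 (CGTGTG and CGTGCG) and by auxin response factors (TGTCTC) were in 0 of 10 windows, and in 5.37%, 1.57% and 10.9% of all, with both strands searched.

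The 3 genes most alike to each called member over the 6 libraries were taken from 13575 protein-coding genes of at least 5 RPKM, by Pearson r of log2(RPKM + 1). All 6 points include the genotype difference, so the values describe likeness and carry no p. They are the highest of many candidates over few libraries, and a high r does not mean a change of the same size. For PRE1 they were FQR1 (r = 0.993), AT5G11420 (0.993) and AT2G42320 (0.993). Their log2 changes were 0.24, 0.64 and 0.32, against 0.98 for PRE1. AT5G11420 stood at 81.8 to 90.2 RPKM in Col-0 and 118.1 to 146.2 RPKM in csu6-2. For PAR2 they were UBC5 (0.999), the auxin-induced gene SAUR63 (0.992) and PSAD-2 (0.990). For PRE4 they were AT1G72430 (0.998), AT2G27290 (0.994) and IDH-V (0.991). IDH-V itself did not pass the test (log2 change 0.11, limma adjusted p = 0.308). Among the members themselves, PRE1 ran closest to PRE5 (r = 0.923) and PAR2 closest to PRE6 (0.907), while PAR1 and IBH1 ran apart (-0.272), over the same 6 libraries.

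**Figure D4:**
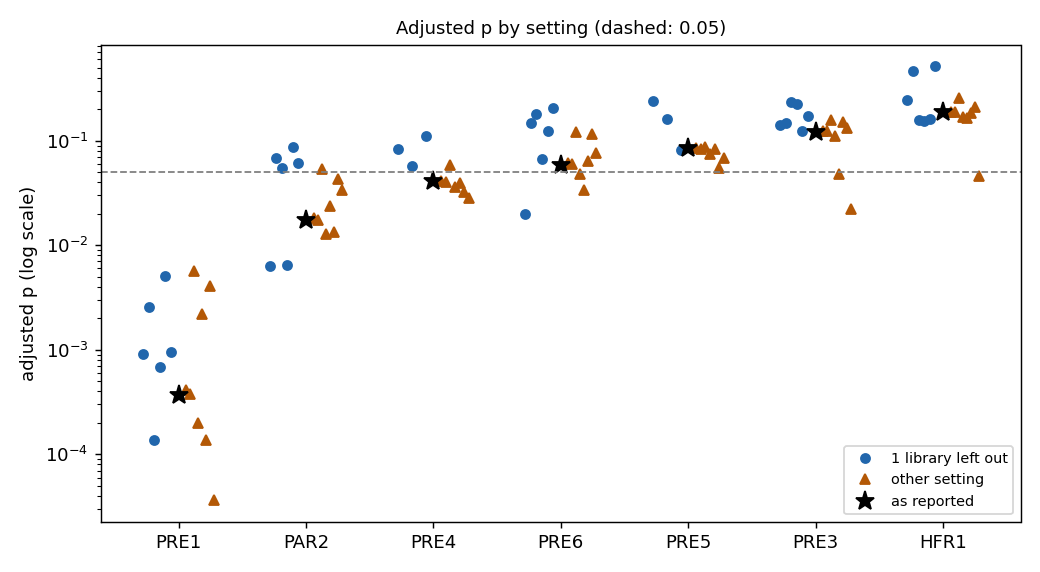
Adjusted p (log axis) of 7 members as reported (star), with 1 library left out (circles) and under the other settings (triangles); the dashed line is 0.05. PRE1 stays below the line in every setting, PAR2 and PRE4 cross it upward, and PRE6, PRE3 and HFR1 cross it downward in 3, 2 and 1 settings.

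Across the series, the libraries were of similar make. Libraries of 1 genotype correlated at Pearson r of 0.9906 to 0.9931 over the tested genes, and those of different genotypes at 0.9833 to 0.9886. Depth was not given, and steps among the lowest values put it at 13.7 to 21.3 M reads per library (M, mega) if the most common step is 1 read, or 27.4 to 42.6 M if it is 2. Of all 18885 tested genes, 671 were higher and 1771 lower in csu6-2, and with median-of-ratios scaling 1066 and 1110 of 18860. The median log2 change over the tested genes was -0.07, and 0.0003 with median-of-ratios scaling. All 10 members had log2 changes above 0 under that scaling too, although the filter fixes this direction for PRE4 and PRE5. PRE3 and PRE6 were called as well (limma adjusted p = 0.0477 and 0.0338). Markers matched the label of whole seedlings, with green tissue and root present. The summed RPKM of the green markers RBCS1A and LHCB1.3 was 18396 to 23193 in Col-0 and 23381 to 25339 in csu6-2. Neither green marker passed the test (limma adjusted p = 0.145 for RBCS1A and 0.201 for LHCB1.3). The sum of the root markers PYK10 and RHD6 was 1210 to 1295 in Col-0 and 967.1 to 1103 in csu6-2. It was nearly all PYK10, as RHD6 had means of 2.01 and 1.83 RPKM and did not pass (limma adjusted p = 0.714). PYK10 alone fell by the test (log2 change -0.27, limma adjusted p = 0.0361), but that call was kept in only 6 of 14 alternatives. It was lost with median-of-ratios scaling (0.161), with no filter on low values (0.0555), with plain eBayes (0.0685) and with 5 of the 6 libraries left out in turn (0.0591 to 0.145). The flower markers AP3 and AG were at 0 to 0.29 RPKM in sum, and the seed gene CRA1 at 0.34 to 2.23 RPKM. The part of these marker differences in the results on the HLH genes was not tested.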

How the data were processed

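Oligo(dT)-selected RNA was sequenced, per the labels' protocols. The submitters' processing notes list HISAT2, edgeR 3.0.8 and TAIR10 without saying what each did. The authors deposited a value per gene and library, read here as RPKM rounded to 2 decimals: totals differ between libraries (CV 0.975%), and the totals weighted by exon length differ less (CV 0.274%). The read counter, gene lengths and strand setting were not stated. Because RPKM divides by the library's reads, a rise of abundant transcripts lowers the rest. Counts could not be recovered, so no counting interval is given.

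Genes with at least 1 RPKM in 3 or more libraries (18885 of 32678, and 10 of 10 members) were compared as log2(RPKM + 1) with limma 3.58.1 (eBayes with trend and robust, statmod 1.5.0, R 4.3.3), two-sided, with Benjamini-Hochberg adjustment over all of them and a threshold of 0.05. Pairs of members were compared by exact permutation. Sequences and positions come from RefSeq TAIR10.1 (31912 identifiers matched by locus tag), read with Biopython 1.88. The members and lists were chosen with earlier results of these data known. Named beside the members are list genes past the threshold, PIF4 and PIF5, and the 3 genes most alike to each called member. Alternatives were 2 other pseudocounts, 2 filters, 2 scalings, plain eBayes, a replicate block and leaving out each library.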

Additional observations from a re-analysis of the deposited data

How the results depend on the processing

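PRE1 kept its call in all 14 alternatives, HBI1, BEE3 and PIF4 likewise, and 0 results changed direction. That count holds PRE4 and PRE5, whose direction the filter fixes wherever they pass it through csu6-2 libraries alone. Leaving out 1 library gave 1279 to 2324 genes called (1279 without Col-0 replicate 2, 1394 without csu6-2 replicate 2, 1516 without csu6-2 replicate 3, against 2442), 1 to 3 members called, and log2 changes of 0.43 to 0.63 for PAR2, 0.45 to 0.59 for PRE4 and 0.22 to 0.41 for PRE6, which passed without Col-0 replicate 1. With no filter on low values 1 member was called, with log2 changes of 0.51 for PRE4 (adjusted p = 0.0591) and 0.50 for PAR2 (0.0542) that did not pass. PRE6 passed at a minimum of 5 RPKM (0.31, adjusted p = 0.0485). With median-of-ratios scaling 5 members were called, PRE4 among them, PRE3 (0.49) and PRE6 (0.39) being added. Under that scaling 1066 of 18860 tested genes were called higher and 1110 lower. With the replicate number as a block 5 members were called, PRE4 among them. PRE3 (0.42, limma adjusted p = 0.0224) and HFR1 (0.36, adjusted p = 0.0464) were added, and PIF5 lost its call (adjusted p = 0.0656). In that setting 2969 genes were called, 813 higher and 2156 lower. Deviations of same-numbered libraries correlated at 0.204, 0.051 and 0.221. Col-0 replicate 2 correlated best with csu6-2 replicate 1 (0.121), and csu6-2 replicate 2 with Col-0 replicate 3 (0.101). The other libraries each correlated best with their own number. With so few libraries, these values cannot decide whether same-numbered libraries share more than a number. The cause of these differences was not tested. Fewer libraries give less power, and the part of this in the lost calls was not tested either. PRE4 and PRE5 drop out of the test without a csu6-2 library, and PAR1, PRE4 and PRE5 at a minimum of 5 RPKM. The rounding to 2 decimals and the few reads limit PRE4 and PRE5 most.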
